A study of Mus musculus with 16 samples.

Results

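A set of 10 monocyte genes was followed across bulk RNA-seq libraries of CD11b+ brain cells: *Cd300e*, *Ear2*, *Fabp4*, *Ly6i*, *Ly6c2*, *Ccr2*, *Chil3*, *Plac8*, *Ace* and *Trem3*. They were picked by symbol, as monocyte genes of which several were already known from these counts to be lower in *Card9*-deficient libraries, and they are 10 of the 55385 genes listed. All 10 were among the 14513 genes that passed the filter on low counts. The 16 libraries came from female mice aged 20 weeks, 4 of each genotype: WT, *Card9-/-*, 5xFAD and *Card9-/-5xFAD*. *Card9-/-* mice lack *Card9* in every cell from the germline onward, and CARD9 is an adaptor that passes signals from innate receptors to downstream kinases in myeloid cells. 5xFAD mice carry human transgenes with familial Alzheimer's disease mutations, driven by a neuronal promoter, and deposit amyloid in the brain early. Cells were taken from perfused brains without meninges and choroid plexus by magnetic selection for CD11b, a surface protein of microglia, monocytes, macrophages and neutrophils alike, so the libraries can mix these cell types. Per the study's methods, flow cytometry was used to check this selection protocol and showed mostly CD11b-high, CD45-intermediate cells, the profile of microglia. In such bulk samples, fewer cells of a type and less RNA per cell cannot be told apart.

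Monocytes arise in the bone marrow and circulate in blood in a classical form, which carries Ly6C and CCR2 and enters tissue along CCL2, and a patrolling form, which crawls along the vessel wall. The brain parenchyma holds few of them when healthy, and microglia make up most of its CD11b+ cells. The genes followed here include markers of both forms. *Ccr2* encodes the chemokine receptor that classical monocytes need to leave the marrow, *Cd300e* and *Trem3* encode activating receptors of the immunoglobulin superfamily, and *Ly6c2* and *Ly6i* encode small surface proteins of the Ly6 family. *Ear2* encodes a secreted ribonuclease, *Chil3* the chitinase-like lectin Ym1, *Fabp4* a fatty acid carrier of the cytoplasm, *Plac8* a small cysteine-rich protein and *Ace* the angiotensin-converting enzyme.

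The sequences before the start sites of 4 of these genes are shown because *Ear2* and *Plac8* varied together from library to library, while *Ccr2* and *Cd300e* were the members that passed the test for the 5xFAD transgenes. They are the 250 bases before a RefSeq start site in GRCm38.p6, written 5′ to 3′ on the gene's strand, with matches to a searched motif in capitals. The windows are chr14:44102404-44102653 (+) for *Ear2*, chr5:100563097-100563346 (-) for *Plac8*, chr9:124101933-124102182 (+) for *Ccr2* and chr11:115062040-115062289 (-) for *Cd300e*. Of these, only the *Ear2* window lies wholly before the annotated start of its gene. The *Ccr2* and *Cd300e* windows span that start, and this *Plac8* window lies inside the gene.
Ear2: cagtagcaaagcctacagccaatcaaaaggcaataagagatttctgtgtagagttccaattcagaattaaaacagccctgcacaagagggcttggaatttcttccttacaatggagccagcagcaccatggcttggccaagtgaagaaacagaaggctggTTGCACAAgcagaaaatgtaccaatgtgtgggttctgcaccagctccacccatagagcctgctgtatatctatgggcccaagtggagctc
Plac8: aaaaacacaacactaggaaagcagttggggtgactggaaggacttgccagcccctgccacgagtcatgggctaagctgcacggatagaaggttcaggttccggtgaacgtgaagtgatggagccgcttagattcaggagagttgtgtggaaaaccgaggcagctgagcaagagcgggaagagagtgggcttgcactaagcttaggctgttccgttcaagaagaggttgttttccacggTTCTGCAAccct
Ccr2: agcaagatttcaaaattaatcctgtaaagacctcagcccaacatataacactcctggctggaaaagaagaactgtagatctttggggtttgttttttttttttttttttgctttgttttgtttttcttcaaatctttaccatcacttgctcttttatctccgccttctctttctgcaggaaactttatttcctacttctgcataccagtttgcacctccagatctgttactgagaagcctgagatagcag
Cd300e: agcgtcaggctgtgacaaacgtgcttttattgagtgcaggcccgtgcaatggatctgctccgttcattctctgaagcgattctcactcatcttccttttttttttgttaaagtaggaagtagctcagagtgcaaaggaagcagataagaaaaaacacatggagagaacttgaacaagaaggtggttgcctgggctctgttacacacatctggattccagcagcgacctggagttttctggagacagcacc
The C/EBP letters TTGCNNAA, searched on both strands, were present before *Ear2* and in this window of *Plac8*, and in 9.56% of 32851 promoter windows of this length. The other *Plac8* window, chr5:100572206-100572455 (-), spans the annotated start of the gene and had no match to any searched motif. The PU.1 letters GAGGAAG were present before *Ly6c2*, in the *Ace* window that starts at chr11:105967698, and in 10.6% of all windows. The *Ace* window that starts at chr11:105974939 had no match. Neither the NF-kB motif (1.41% of windows), nor the NR4A letters AAAGGTCA (1.34%), nor the interferon response element ISRE (2.98%) occurred in the 10 windows found for 7 of the genes. These are matches of letters only, not binding sites.

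The libraries held 2970148 to 19333325 counts on genes, with 2 under 4000000 (*Card9-/-* replicate 4 and *Card9-/-5xFAD* replicate 4). Microglial genes were abundant in all of them, with *P2ry12* at 1764 CPM (counts scaled to library size) or more. The *Card9* gene itself did not check the labels: it had 51 to 842 counts in *Card9-/-* libraries and 27 to 295 in *Card9-/-5xFAD* libraries, ranges that overlapped those of WT and 5xFAD, so the genotypes rest on the labels. In each genotype, 1 library had the lowest summed CPM of 11 homeostatic microglia genes, and that library also had the highest *Ear2*, *Fabp4*, *Plac8* and *Ccr2* of its genotype. These were WT replicate 1, *Card9-/-* replicate 4, 5xFAD replicate 1 and *Card9-/-5xFAD* replicate 4. Their homeostatic sums were 18849, 19023, 21069 and 17148 CPM in that order. The part of cell composition in the results was not tested.

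**Figure D1:**
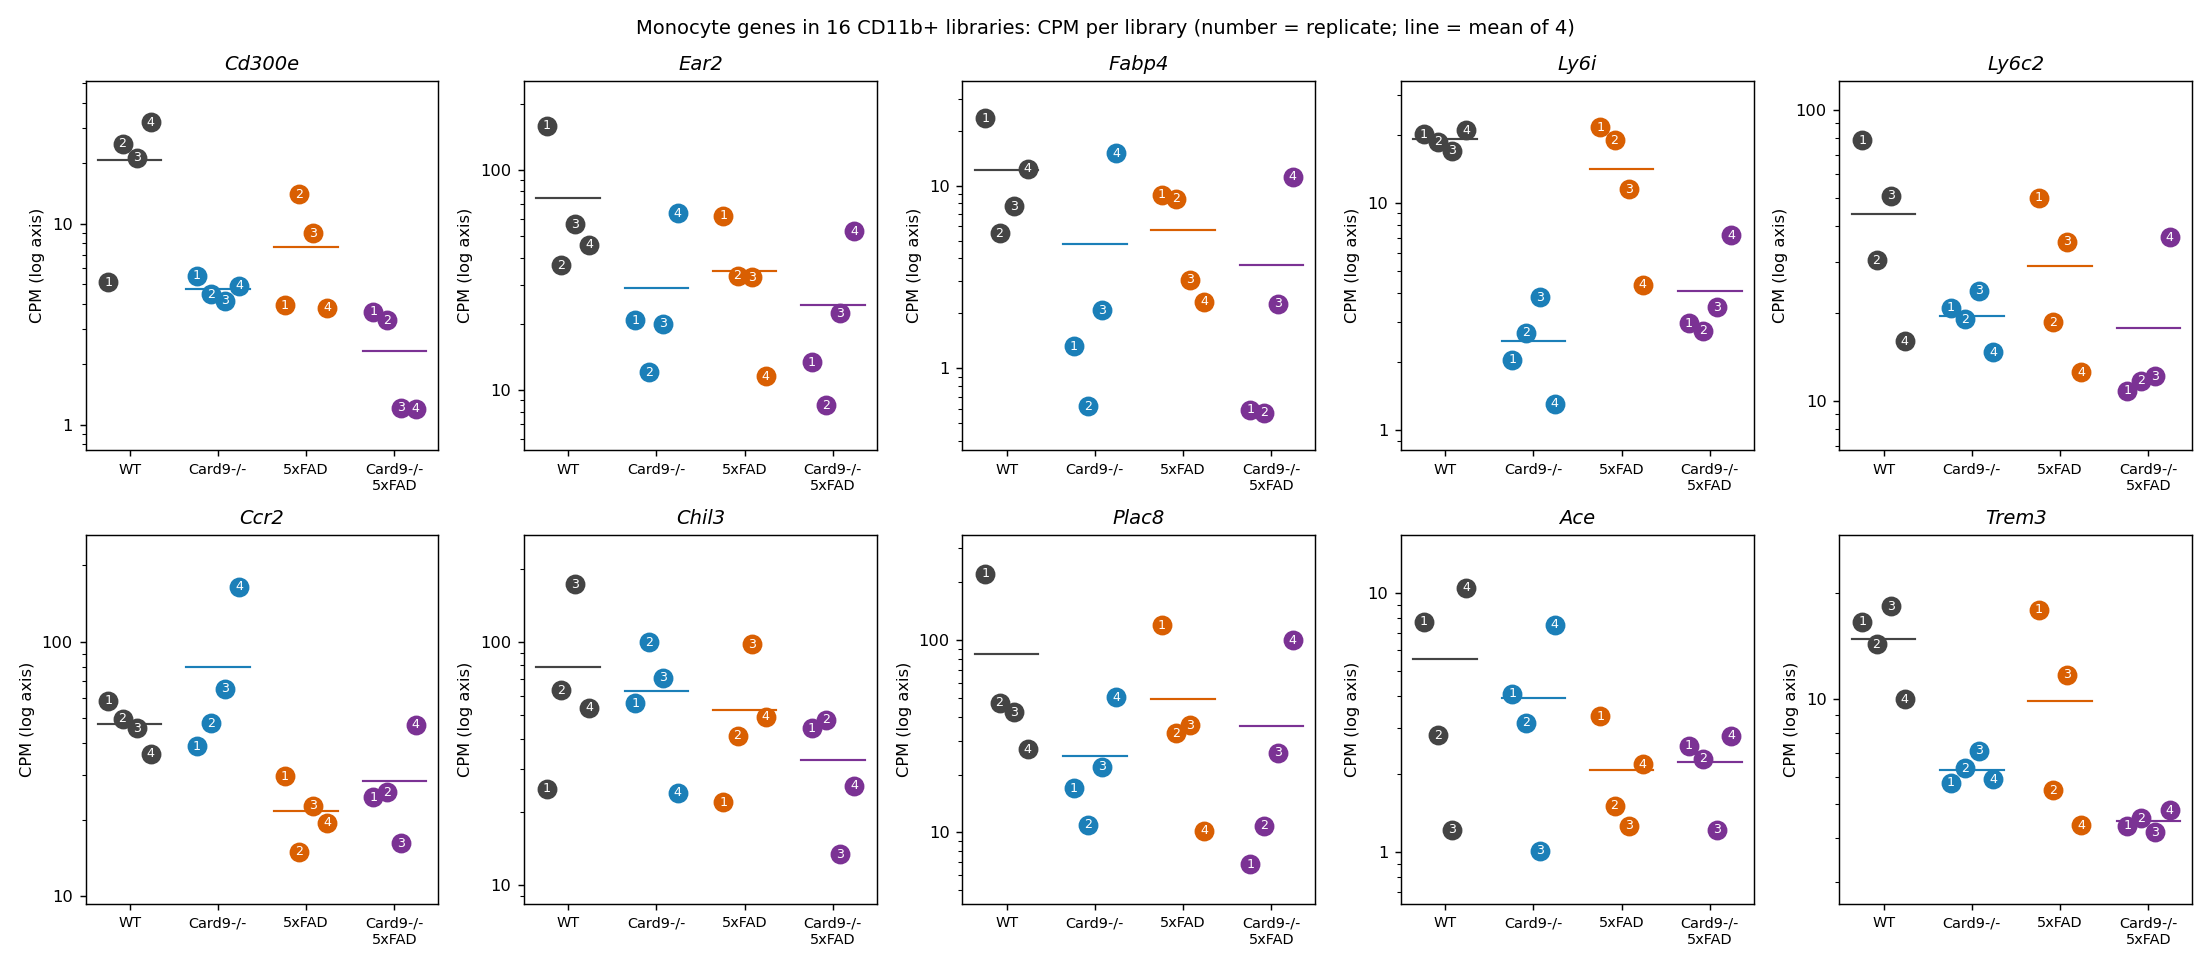
CPM of the 10 monocyte genes (log axis) in each of the 16 libraries, grouped by genotype, with replicate numbers in the points and a line at the mean of 4. *Ly6i* in WT (17 to 21.0 CPM) sits above every *Card9-/-* library (1.31 to 3.85 CPM), while *Ccr2* is lower in all 5xFAD than in all WT libraries.

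Among the receptors, *Ccr2* was at 58.6, 49.8, 45.8 and 36.3 CPM in WT replicates 1 to 4, and at 29.6, 14.9, 22.7 and 19.5 CPM in 5xFAD replicates 1 to 4. It was at 38.9, 47.9, 65.5 and 165 CPM in *Card9-/-* and at 24.5, 25.7, 16.2 and 47.3 CPM in *Card9-/-5xFAD* replicates 1 to 4. All 4 5xFAD libraries were below all 4 WT libraries, whereas *Card9-/-5xFAD* replicate 4 overlapped the *Card9-/-* range. *Cd300e* was at 5.11, 24.9, 21.3 and 32.0 CPM in WT and 3.94, 14, 8.99 and 3.81 CPM in 5xFAD. It was at 5.52, 4.47, 4.15 and 4.91 CPM in *Card9-/-* and 3.65, 3.31, 1.22 and 1.2 CPM in *Card9-/-5xFAD*, the last from 3 counts. WT replicate 1 was far below the other WT libraries and within the *Card9-/-* range, so the groups overlapped. *Trem3* was at 16.5, 14.3, 18.3 and 9.95 CPM in WT and 17.9, 5.48, 11.7 and 4.36 CPM in 5xFAD. It was at 5.76, 6.33, 7.11 and 5.89 CPM in *Card9-/-* and 4.34, 4.56, 4.17 and 4.81 CPM in *Card9-/-5xFAD*. Its *Card9*-deficient libraries lay close together, and those of 5xFAD were spread 4.11-fold.

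Of the Ly6 surface proteins, *Ly6i* was at 20.1, 18.7, 17 and 21.0 CPM in WT and 2.04, 2.69, 3.85 and 1.31 CPM in *Card9-/-*. It was at 21.5, 18.9, 11.5 and 4.36 CPM in 5xFAD and 2.96, 2.74, 3.48 and 7.21 CPM in *Card9-/-5xFAD*. The WT and *Card9-/-* ranges were apart, while *Card9-/-5xFAD* replicate 4 was above 5xFAD replicate 4. *Ly6c2*, the Ly6C antigen of classical monocytes, was at 78.5, 30.4, 50.7 and 16 CPM in WT and 20.9, 19.1, 23.9 and 14.7 CPM in *Card9-/-*. It was at 49.9, 18.6, 35.3 and 12.5 CPM in 5xFAD and 10.9, 11.8, 12.2 and 36.4 CPM in *Card9-/-5xFAD*. Its ranges overlapped in every comparison. Of the 50-base words of *Ly6c2* exons, 14.5% also occur in other genes, mainly *Ly6c1*, and 4.76% of those of *Ly6i*. Reads from these stretches may have been lost or counted for another gene.

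Of the secreted proteins, *Ear2* was at 159, 37.0, 56.7 and 45.8 CPM in WT and 20.8, 12, 20.0 and 63.8 CPM in *Card9-/-*. It was at 62.0, 33.2, 32.6 and 11.6 CPM in 5xFAD and 13.4, 8.56, 22.4 and 52.9 CPM in *Card9-/-5xFAD*. In both *Card9*-deficient genotypes replicate 4 stood above the other libraries and reached into the range of its *Card9*-sufficient counterpart. In *Card9-/-5xFAD*, replicates 1 and 3 lay in the 5xFAD range as well. *Ear2* shares 41.5% of its 50-base words with *Ear10*, *Ear1* and other ribonuclease copies, which makes its level uncertain. *Chil3* was at 24.8, 63.2, 172 and 53.5 CPM in WT and 55.8, 99.4, 71.2 and 23.9 CPM in *Card9-/-*. It was at 21.8, 41.0, 97.5 and 49.2 CPM in 5xFAD and 44.1, 47.7, 13.4 and 25.6 CPM in *Card9-/-5xFAD*. Its lowest library in WT, *Card9-/-* and 5xFAD was the one in which *Ear2* was highest, and 26.9% of its words are shared, mainly with *Chil4*.

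Of the remaining genes, *Plac8* was at 221, 47.3, 42.0 and 27.1 CPM in WT and 16.9, 11, 21.9 and 50.4 CPM in *Card9-/-*. It was at 120, 32.8, 36 and 10.2 CPM in 5xFAD and 6.81, 10.8, 25.9 and 100 CPM in *Card9-/-5xFAD*. WT replicate 1 and *Card9-/-5xFAD* replicate 4 were far above the rest of their genotypes. *Fabp4* was at 23.4, 5.48, 7.72 and 12.4 CPM in WT and 1.32, 0.621, 2.07 and 15.0 CPM in *Card9-/-*. It was at 8.95, 8.50, 3.06 and 2.32 CPM in 5xFAD and 0.592, 0.570, 2.26 and 11.2 CPM in *Card9-/-5xFAD*. In both *Card9*-deficient genotypes replicate 4, the shallow library, was the highest: it lay inside the WT range in *Card9-/-* and above every 5xFAD library in *Card9-/-5xFAD*, whose other 3 libraries lay below every 5xFAD library. *Ace*, a peptidase that patrolling monocytes carry, was at 7.75, 2.82, 1.21 and 10.5 CPM in WT and 4.08, 3.14, 1.01 and 7.52 CPM in *Card9-/-*. It was at 3.34, 1.51, 1.26 and 2.18 CPM in 5xFAD and 2.57, 2.28, 1.22 and 2.80 CPM in *Card9-/-5xFAD*, with overlap in every comparison.

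Levels of different genes were compared per kilobase of annotated exon. In WT, *Ear2* was highest at 104 ± 78.8 CPM per kb (SD, n = 4), followed by *Plac8* at 53.0 ± 57.4 and *Chil3* at 48.1 ± 39.6, and these 3 overlapped. *Ly6i* (16.6 ± 1.5), *Ly6c2* (16 ± 9.89) and *Trem3* (14.9 ± 3.64) came next and overlapped as well. *Cd300e* stood at 9.97 ± 5.45 and *Ccr2* at 7.04 ± 1.37 CPM per kb. *Fabp4* (2.73 ± 1.78) and *Ace* (1.05 ± 0.813) were lowest. The annotated exons of *Fabp4* together cover all 4489 bases of the gene, so its level per kilobase is a low estimate for the spliced transcript.

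With *Card9* deleted, most of these genes had lower values, but not all of them. These differences are those by which the genes were picked, and *Ly6i* and *Cd300e* were also picked out in the study's own comparison, so they are given without a test. In *Card9-/-* against WT, *Ly6i* fell by 2.89 ± 0.47 on the log2 scale (± SE, n = 4 in each genotype), *Cd300e* by 2.13 ± 0.54, *Plac8* by 1.77 ± 0.90 and *Fabp4* by 1.48 ± 1.00. *Ear2* was lower by a log2 difference of -1.37 ± 0.67, *Trem3* of -1.23 ± 0.38 and *Ly6c2* of -1.15 ± 0.52. *Ace* (-0.55 ± 0.63) and *Chil3* (-0.32 ± 0.59) were within their errors of 0, and *Ccr2* was higher (0.73 ± 0.42). Thus 9 of 10 were lower, with a median of -1.30 against 0.11 over all 14513 genes, of which 40.5% were lower. In *Ly6i* and *Trem3*, 2 of the 10, the ranges were apart, as they were in the lower direction for 1.6% of all genes; the choice of genes favours such values, so nothing is read from the 2 shares. No gene at all, 0 of 14513 (0% called), passed a false discovery rate (FDR) of 0.1 by edgeR, while 592 had an unadjusted p under 0.05 and DESeq2 on all libraries called 5 genes. DESeq2 on only these groups called 8 of 27850 genes, 4 higher and 4 lower. The study, also with DESeq2 at that FDR, reported 4 higher and 4 lower. T or NK cell genes had lower values in the same comparisons, with ranges that overlapped: their summed level was 56.9 to 392 CPM in WT and 54.9 to 74.6 CPM in *Card9-/-*, and 41.3 to 206 CPM in 5xFAD and 32.1 to 64.9 CPM in *Card9-/-5xFAD*. All 8 tested were lower in *Card9-/-* than in WT and 7 of 8 in *Card9-/-5xFAD* than in 5xFAD, with none past the threshold, and up to 4 of the 11 listed were at 0 in a library. Their part in the result was not tested.

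In *Card9-/-5xFAD* against 5xFAD, 8 of the 10 were lower, with a median of -0.70 against 0.14 over all genes, of which 38.0% were lower. *Ly6i* fell by 1.84 ± 0.46 on the log2 scale, *Cd300e* by 1.64 ± 0.56 and *Trem3* by 1.14 ± 0.39. The other lower values ran from -0.81 (*Fabp4*) to -0.49 (*Plac8*), while *Ace* was at 0.08 ± 0.66 and *Ccr2* at 0.38 ± 0.43. In 1 of the 10, *Cd300e*, the ranges were apart (0.923% of all genes, from which again nothing is read), by the small margin between 3.65 and 3.81 CPM. No gene, 0 of 14513 (0% called), passed an FDR of 0.1 by edgeR, while 363 had an unadjusted p under 0.05 and DESeq2 on all libraries called 2 genes. Without *Card9-/-* replicate 4, *Fabp4* in *Card9-/-* against WT moved to -3.18 and *Ear2* to -2.08, and without *Card9-/-5xFAD* replicate 4, *Fabp4* in *Card9-/-5xFAD* against 5xFAD moved to -2.38. The higher *Ccr2* also turned on these 2 libraries, with 0.10 and 0.03 left without them. Other libraries made the differences smaller. Without WT replicate 1, *Plac8* in *Card9-/-* against WT moved to -0.66, *Ear2* to -0.70, *Ly6c2* to -0.72 and *Fabp4* to -0.98. Without 5xFAD replicate 1, *Plac8* in *Card9-/-5xFAD* against 5xFAD turned to 0.40, *Ear2* moved to -0.13, *Ly6c2* to -0.36 and *Trem3* to -0.69. *Ace* in *Card9-/-* against WT was at -0.03 without WT replicate 4. *Ly6i* and *Cd300e* stayed below -1.1 in both comparisons with any library left out. Without WT replicate 3, *Chil3* in *Card9-/-* against WT was at 0.41, the opposite direction.

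**Figure D2:**
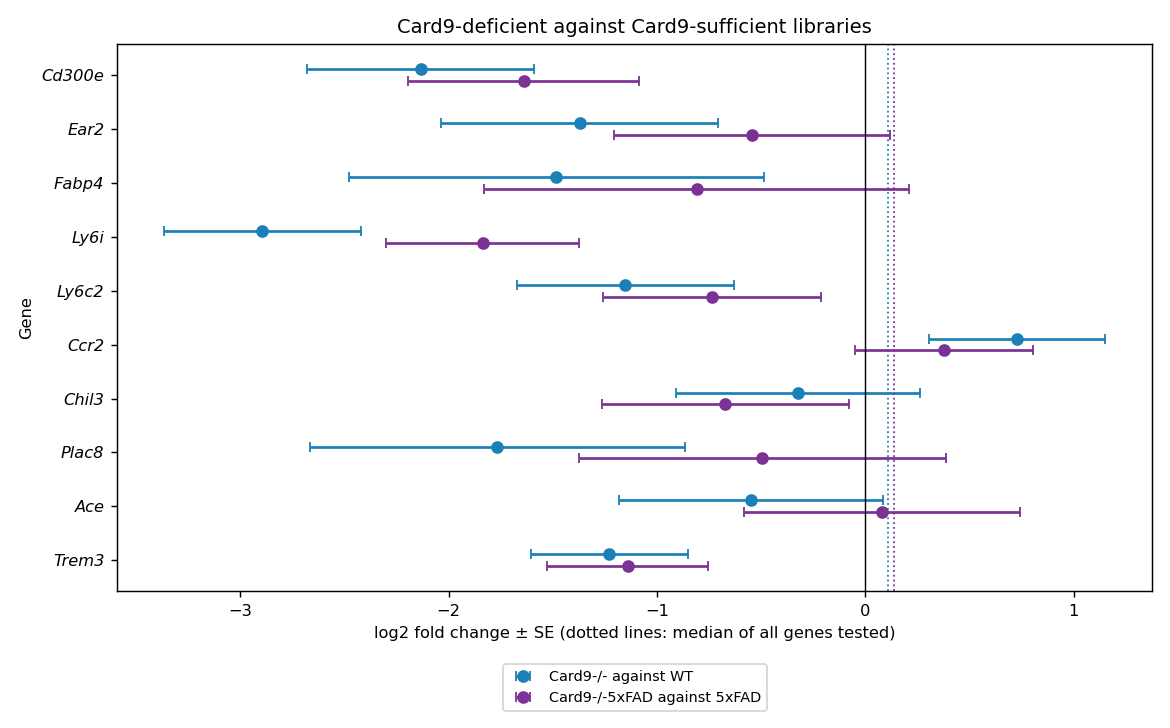
log2 fold change ± SE of each gene in *Card9*-deficient against *Card9*-sufficient libraries, without and with the 5xFAD transgenes (n = 4 in each genotype), with dotted lines at the medians of all genes tested (0.11 and 0.14). *Ly6i* and *Cd300e* lie farthest to the left in both comparisons and *Ccr2* lies to the right of 0 in both.

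The genes were not picked by the 5xFAD transgenes, so these comparisons were tested. The 2 comparisons within a *Card9* genotype share libraries with the *Card9* comparisons that chose the genes. Picking on high WT or low *Card9-/-* values would lean them lower in 5xFAD against WT and higher in *Card9-/-5xFAD* against *Card9-/-*. Picking on high 5xFAD or low *Card9-/-5xFAD* values would lean both the opposite way, so the net direction is not known. The counts and medians of these 2 comparisons and of the interaction are therefore not free of the choice. In the averaged effect the 2 leanings from either choice are opposite in sign, and how far they offset was not tested. *Ccr2* and *Cd300e* fell with the transgenes when the effect was averaged over both *Card9* genotypes. *Ccr2* fell by 1.31 ± 0.30 on the log2 scale (± SE, edgeR quasi-likelihood test, FDR 0.0167), and *Cd300e* by 1.19 ± 0.38 (edgeR FDR 0.0743). These were 2 of 10 genes, where 11.3% of all genes passed in either direction and 5.65% in the lower. All genes called split into 813 higher and 820 lower, or 944 and 661 with DESeq2's size factors, which left the calls of *Ccr2* and *Cd300e* as they were. The call of *Ccr2* held when any single library was left out. That of *Cd300e* was lost without WT replicate 2, 3 or 4, *Card9-/-* replicate 1, 2 or 3, 5xFAD replicate 1, 3 or 4, or *Card9-/-5xFAD* replicate 3, and *Trem3* passed without 5xFAD replicate 1.

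The other 8 genes did not pass. *Ace* was at -1.10 ± 0.46 (edgeR FDR 0.167), *Trem3* at -0.54 ± 0.27 (edgeR FDR 0.242) and *Chil3* at -0.76 ± 0.42 (edgeR FDR 0.298). *Fabp4* (-0.76 ± 0.71), *Ear2* (-0.68 ± 0.47), *Ly6c2* (-0.38 ± 0.37), *Plac8* (-0.12 ± 0.62) and *Ly6i* (0.08 ± 0.31) lay within 2 SE of 0. The median of the 10 was -0.72 against -0.15 over all genes, and 9 of 10 were below 0, as were 61.7% of all genes.

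Within each *Card9* genotype, edgeR called 0 of 10. In 5xFAD against WT all 10 were below 0, with a median of -0.93 against -0.15 over all genes, of which 61.1% were below 0. *Cd300e* was at -1.44 ± 0.53 (edgeR FDR 0.291), *Ace* at -1.41 ± 0.65 (edgeR FDR 0.447) and *Ccr2* at -1.14 ± 0.43 (edgeR FDR 0.310), and these 3 had an unadjusted p under 0.05. Here 2.07% of all genes passed, 10.8% had an unadjusted p under 0.05, and ranges were apart in the lower direction for 3.69% of genes, *Ccr2* among them. In *Card9-/-5xFAD* against *Card9-/-*, 8 of 10 were below 0, with a median of -0.46 against -0.15 over all genes, of which 60.6% were below 0. *Ccr2* was at -1.49 ± 0.43 (edgeR FDR 0.130), the only one with an unadjusted p under 0.05 (12.2% of all genes), while *Ly6i* (0.61 ± 0.46) and *Plac8* (0.51 ± 0.89) were above 0. Here 1.98% of genes passed, and ranges were apart in the lower direction for *Cd300e* and *Trem3* and for 3.48% of all genes. DESeq2 on all libraries called 0 of 10 in 5xFAD against WT and 1, *Ccr2*, in *Card9-/-5xFAD* against *Card9-/-*. Whether the transgene effect differed between *Card9* genotypes is the same difference as whether the *Card9* effect differed with the transgenes, and edgeR called 0 of 14513 genes for it (77 with an unadjusted p under 0.05, and 1 gene called by DESeq2 on all libraries).

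The calls rose when replicate numbers were used as pairs within each *Card9* genotype, a fit chosen after the data and the unpaired calls had been seen. It called 5 of 10 in 5xFAD against WT, all lower: *Cd300e*, *Ear2*, *Ccr2*, *Ace* and *Trem3* (7.14% of all genes lower, 16.1% in either direction). It called *Ccr2* and *Chil3* in *Card9-/-5xFAD* against *Card9-/-* (9.23% of all genes lower, 20.5% in either direction). Averaged, it called 8 of 10, all but *Ly6i* and *Plac8*, where 23.9% of all genes were called lower and 41.9% in either direction. With the block, *Ccr2* fell by 1.25 ± 0.17 on the log2 scale (edgeR FDR 0.000233) and *Cd300e* by 1.19 ± 0.29 (edgeR FDR 0.0086). The labels do not say that a shared number marks a shared litter or day. A block of the 4 numbers over all genotypes left the calls at 0, 0 and 2. Without the library of each genotype lowest in homeostatic microglia genes, edgeR called 2 of 10 (*Cd300e* and *Ccr2*), 1 (*Ccr2*) and 3 (*Trem3* added) in the same order, where 7.83%, 16.4% and 34.2% of all genes passed. All these calls were in the lower direction, in which 2.88%, 6.09% and 16.7% of all genes passed. The 4 libraries left out were first noticed because *Ear2*, *Plac8*, *Fabp4* and *Ccr2* were highest in them, so leaving them out is not an independent check.

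**Figure D3:**
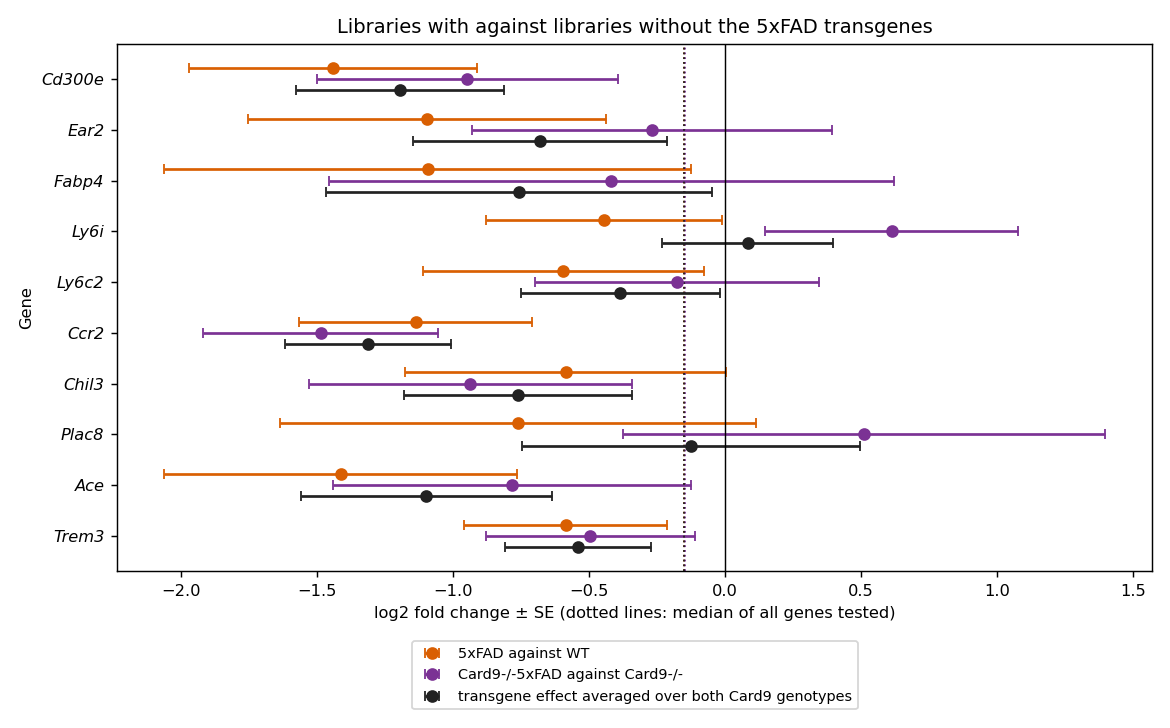
log2 fold change ± SE of each gene in libraries with against libraries without the 5xFAD transgenes, in each *Card9* genotype and averaged (no replicate block), with dotted lines at the medians of all genes tested (about -0.15). *Ccr2* and *Cd300e*, the only ones past an FDR of 0.1 in the averaged effect, lie left of 0 by more than 3 SE in that effect, though by less within each *Card9* genotype except for *Ccr2* in *Card9-/-5xFAD* against *Card9-/-*.

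Within genotypes, the genes did not vary as 1 group. After centring on genotype means, log2 CPM of *Ear2*, *Plac8* and *Fabp4* correlated with each other at r = 0.83 to 0.93 over 16 libraries, which share depth and cell composition between the genes. *Ccr2* correlated with these 3 at 0.63 to 0.67. *Cd300e* and *Chil3* each correlated negatively with 8 of the 9 other genes and positively with each other (r = 0.53). Over the 45 pairs the median r was 0.33. The biological coefficient of variation within genotypes was 0.90 for *Fabp4* and 0.81 for *Plac8*, above that of 95.6% and 93.3% of all genes, and 0.39 for *Trem3*, where the median of all genes was 0.43.

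**Figure D4:**
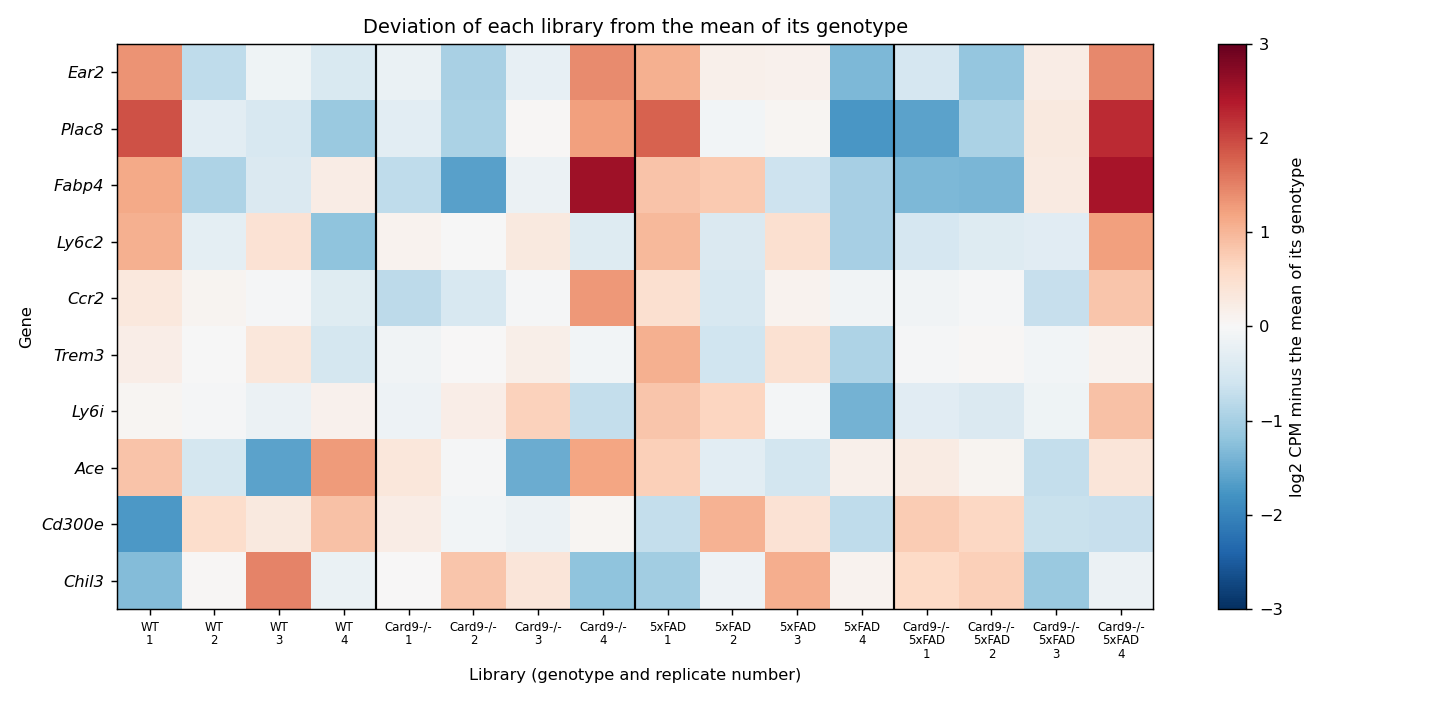
Deviation of log2 CPM from the genotype mean for each gene (rows) and library (columns), red for higher and blue for lower. *Ear2*, *Plac8* and *Fabp4* are red together in WT 1, *Card9-/-* 4, 5xFAD 1 and *Card9-/-5xFAD* 4, where *Chil3* is blue.

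The genes outside the set that followed the mean of the 10 most closely over the 16 libraries, again after centring, were *Mcemp1*, a membrane protein of myeloid cells (r = 0.96), *Trim30d* (0.92), *Cdkn3*, a phosphatase of the cell cycle (0.91), *Phf21a* (0.91) and *A130006I12Rik* (0.91). Of these, *Cdkn3* rose with the transgenes (1.40 ± 0.38 on the log2 scale, edgeR FDR 0.0386), and *Mcemp1* was at -0.57 ± 0.36 (edgeR FDR 0.366). *A130006I12Rik* had only 1 to 21 counts in a library. Among the 10 genes themselves, r with their mean was 0.87 for *Plac8* and 0.86 for *Ear2*. It was only 0.24 for *Ace*, -0.24 for *Cd300e* and -0.30 for *Chil3*, with the rest from 0.64 to 0.77.

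Lists of monocyte genes, CCR2 ligands and relatives of the 10 genes were counted for the averaged transgene effect. Over all genes, 11.3% passed in either direction and 5.65% in the lower, with a median of -0.15. The lists were written with earlier results of these data known. Which cells their reads came from was not tested. Of 14 classical monocyte genes tested, 5 fell and 0 rose (median -0.59), among them *Napsa* (-0.94, edgeR FDR 0.056) and *Clec4e* (-0.97, edgeR FDR 0.0687). Of 12 patrolling monocyte genes, 5 fell and 1 rose (median -0.89). *Cd36*, a scavenger receptor, fell by 1.28 on the log2 scale (edgeR FDR 0.0113) and *Clec4a1* by 1.06 (edgeR FDR 0.0206), whereas the Fc receptor *Fcgr4* rose by 1.01 (edgeR FDR 0.0101). Of 3 CCR2 ligands, none passed, with *Ccl2* at -0.42, *Ccl7* at -0.52 and *Ccl12* at 0.24. Among 19 relatives of the 10 genes, 4 fell and 7 rose. *Fabp3* and *Fabp5*, fatty acid carriers like *Fabp4*, rose by 6.09 and 4.89 on the log2 scale (edgeR FDR 5.6e-08 and 0.000111), and *Treml2* rose by 1.29 (edgeR FDR 0.00054). The near copies *Ear1* (-1.06 ± 0.72) and *Ly6c1* (-0.30 ± 0.65) did not pass.

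Marker lists of other cell types were counted in the same way, where 11.3% of all genes passed in either direction and 5.65% in the lower. Of 10 border-associated macrophage genes 6 fell and 0 rose, including *Mrc1* (-1.24), *Lyve1* (-1.04) and *Cd163* (-1.30), with edgeR FDR from 0.000995 to 0.0116. Of 13 neutrophil genes 4 fell and 0 rose, including *Mmp9* (-1.66), *Mmp8* (-1.42) and *Cxcr2* (-0.85). Of 7 dendritic cell genes 3 fell, of 8 T or NK cell genes 2 and of 8 endothelial genes 1, and none rose. No B cell (3 tested), choroid plexus (6) or homeostatic microglia gene (11) passed, with 0, 0 and 2 of them at an unadjusted p under 0.05. With the replicate block within each *Card9* genotype, 23.9% of all genes were called lower and 41.9% in either direction. This block raised the genes called lower to 9 of the patrolling monocyte (2 higher), 10 of the neutrophil, 8 of the border-associated macrophage, 7 of the classical monocyte (1 higher) and 8 of the relatives lists (7 higher). It also called 2 CCR2 ligands lower and 1 higher, 5 dendritic and 5 T or NK cell genes lower, 3 endothelial genes lower and 1 higher, and 3 homeostatic microglia genes lower and 2 higher. In both *Card9* comparisons, no gene of any list passed by edgeR. Border-associated macrophage sums were 1228 to 1853 CPM in WT and 743 to 923 CPM in 5xFAD, ranges apart from each other, and 1365 to 1989 CPM in *Card9-/-* against 567 to 1893 CPM in *Card9-/-5xFAD*. Choroid plexus sums were highest in each genotype in the libraries with the highest *Ear2*, *Plac8* and *Fabp4*: 1747 CPM in WT replicate 1, 3035 CPM in *Card9-/-* replicate 4, 1472 CPM in 5xFAD replicate 1 and 1207 CPM in *Card9-/-5xFAD* replicate 4. They ran from 3.16 to 1196 CPM in the other libraries, although the choroid plexus had been removed. Neutrophil sums reached 6623 CPM in *Card9-/-* replicate 4 and 6362 CPM in *Card9-/-5xFAD* replicate 4, against 762 to 1865 CPM in the other libraries of these genotypes. The part of these cell types in the results of the 10 genes was not tested.

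**Figure D5:**
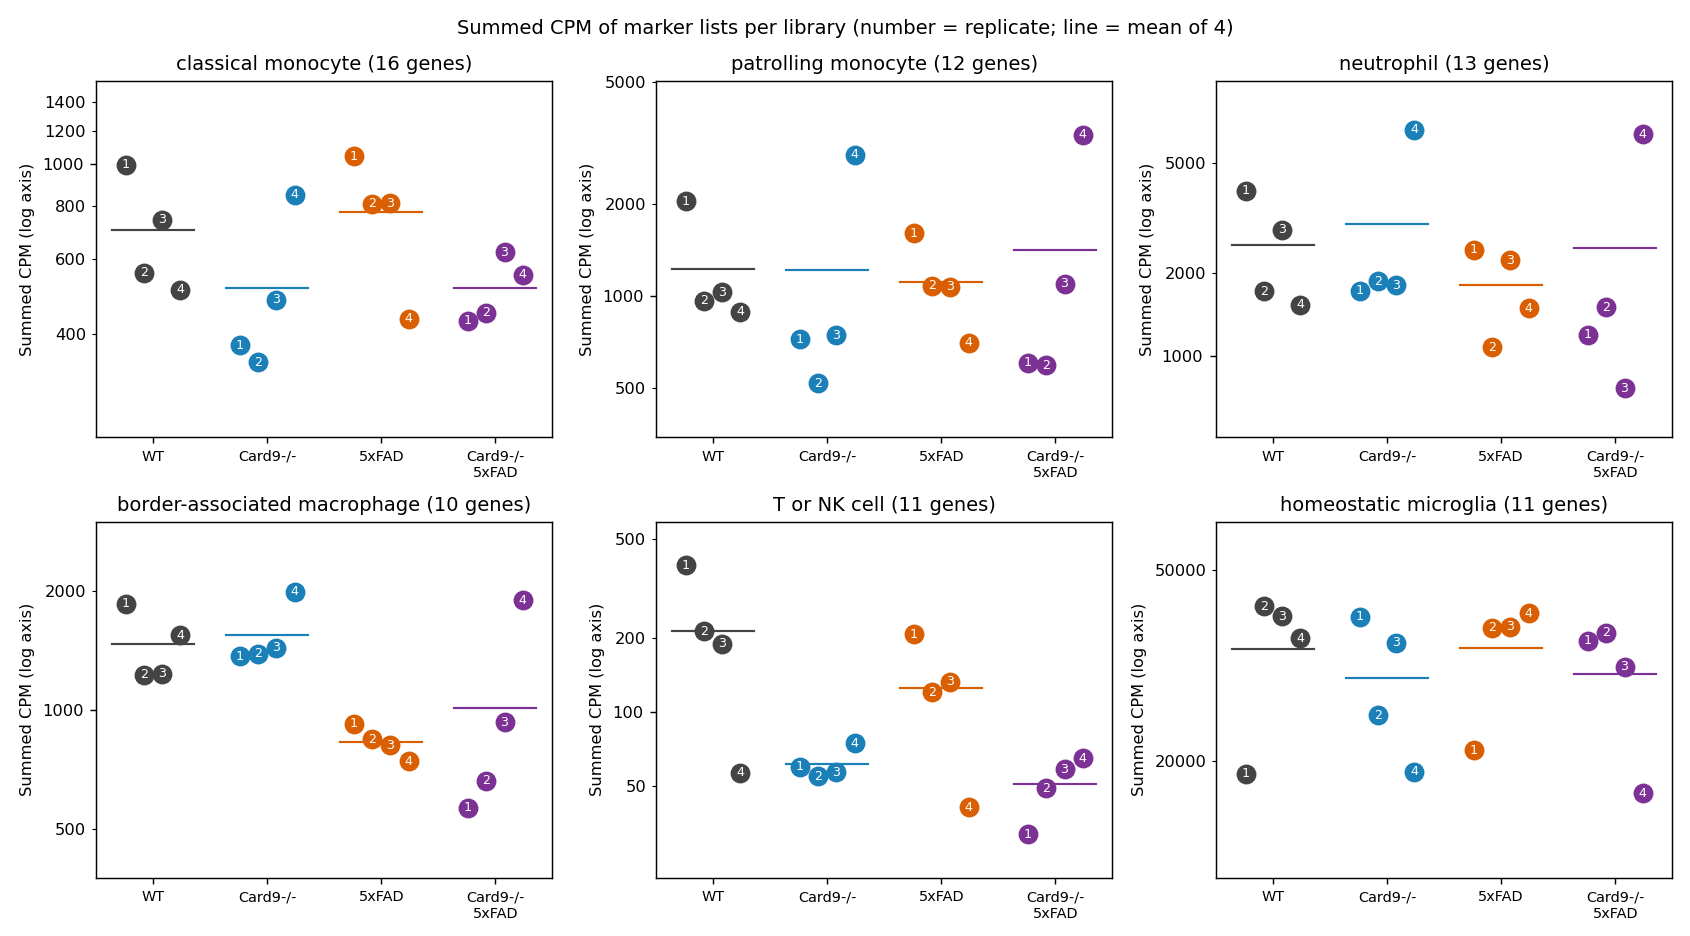
Summed CPM (log axis) of 6 marker lists in each of the 16 libraries, with replicate numbers in the points and a line at the mean of 4. The homeostatic microglia sum is lowest and the patrolling monocyte and neutrophil sums are highest in WT 1, *Card9-/-* 4, 5xFAD 1 and *Card9-/-5xFAD* 4 within their genotypes.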

How the data were processed

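RNA was sequenced from CD11b+ brain cells of female mice in 16 libraries. Per the labels and the study's methods, the authors aligned reads with HISAT2 to mm10, filtered them with SAMtools and deposited raw counts per gene from HTSeq; the strand setting is not given in the sources used here. Genotypes came from the labels, and p-values measure the spread between 4 samples per genotype, which may be partly technical where samples shared a preparation. From these counts, genes were filtered (filterByExpr, minimum count 10, 14513 kept), scaled by TMM and fitted over all 16 libraries in edgeR 4.0.16 (R 4.3.3, limma 3.58.1) with the robust quasi-likelihood test at a Benjamini-Hochberg FDR of 0.1. DESeq2 1.42.0 was an alternative. CPM use TMM-scaled library sizes, and correlations use log2 CPM with a prior count of 2. Depth was 2970148 to 19333325 counts. No pair of libraries of the same genotype agreed within sampling noise.

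The members and the marker lists (classical and patrolling monocyte, CCR2 ligands, relatives, neutrophil, border-associated macrophage, dendritic, B, T or NK, endothelial, choroid plexus, red blood cell, homeostatic microglia) were chosen with earlier results of these data known. The red blood cell list gave no value, since none of its genes was tested. Genes outside the members were named by rule: the 5 with the closest within-genotype pattern, up to 3 passing genes per list by FDR, and near copies. Scripts were tested on simulated data.

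Alternatives were another scaling, filter, tool, set of groups and FDR, each library left out, and a replicate block. After the data were seen, 3 more were added. The first leaves out both libraries under 4000000 counts. The second is a replicate block within each *Card9* genotype, added because deviations of same-numbered libraries correlated above 0.1 in all 4 pairs of WT and 5xFAD (0.27 to 0.71) and in all 4 of *Card9-/-* and *Card9-/-5xFAD* (0.13 to 0.73). Over all pairings of genotypes this held for only 15 of 24 pairs, and the unpaired calls were already known. The third leaves out the library of each genotype lowest in homeostatic microglia genes. Those 4 libraries had first been noticed because *Ear2*, *Plac8*, *Fabp4* and *Ccr2* were highest in them, and the marker rule that picks the same 4 was written afterwards, so it is not an independent criterion. Sequences are from RefSeq (GRCm38.p6), which held promoters of 7 of the 10 genes.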

Additional observations from a re-analysis of the deposited data

Results flagged for a closer look

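The 10 genes in 4 genotypes gave 40 sets of 4 libraries. In 7 of these sets, the highest library stood apart from the other 3 by more of the range than Dixon's critical value. Chance exceeds that value in about 1 of 20 sets if values are normally distributed. The rule was applied to CPM, and on log2 CPM a gap at the high end takes up less of the range. The rate of 1 in 20 therefore need not hold here, and the 7 sets are not read as an excess over chance. *Ear2* reached 158.6 CPM in WT replicate 1, next to 56.7 CPM, and 63.8 CPM in *Card9-/-* replicate 4, next to 20.8 CPM. *Plac8* reached 221 CPM in WT replicate 1, next to 47.3 CPM. *Fabp4* reached 15.0 CPM in *Card9-/-* replicate 4, next to 2.07 CPM, and 11.2 CPM in *Card9-/-5xFAD* replicate 4, next to 2.26 CPM. In that last library *Ly6i* reached 7.21 CPM, next to 3.48 CPM, and *Ly6c2* 36.4 CPM, next to 12.2 CPM. The 7 sets are not independent, since they involve 3 libraries, of which 2 are the shallowest.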

How the results depend on the processing

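With 4 libraries per genotype, at most a few of the 10 genes passed in any unpaired fit, and shallow libraries gave *Cd300e* as few as 3 counts. For the averaged transgene effect, 2 genes passed; the count was 1 (*Ccr2*) without a filter, with at least 10 counts in every library (7 genes tested) or at an FDR of 0.05, and 1 to 2 with any library left out. In 5xFAD against WT the count of 0 became 1 with DESeq2 on only these groups, 1 without the 2 shallow libraries, and 0 to 1 with any library left out. In *Card9-/-5xFAD* against *Card9-/-* the count of 0 became 1 with DESeq2 on all libraries, 1 without the shallow libraries and 0 to 1 with any library left out. In *Card9-/-* against WT the count of 0 became 1 (*Ly6i*) without a filter or with DESeq2 on all libraries, 2 with DESeq2 on only these groups, and 0 to 1 with any library left out; the genes were picked on this comparison, so these calls are circular and no evidence. DESeq2 on only the groups compared could not be run for the averaged effect or the interaction. DESeq2's size factors in edgeR changed no count of these genes, but moved the split of all genes called in the averaged effect from 813 higher and 820 lower to 944 and 661.

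The replicate block within each *Card9* genotype, chosen after the data were seen, raised the counts to 5, 2 and 8 (5xFAD against WT, *Card9-/-5xFAD* against *Card9-/-*, averaged) and turned *Ly6i* in the averaged effect to -0.061. The replicate block over all genotypes changed no call of these genes. In each of both pairings, 5 of 8 samples correlated best with their own number.

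Without the library of each genotype lowest in homeostatic microglia genes, the counts were 2, 1 and 3 in the same order, where 7.83%, 16.4% and 34.2% of all genes passed. In the lower direction, that of all these calls, 2.88%, 6.09% and 16.7% of all genes passed. Because these 4 libraries were noticed through the genes themselves, the larger counts are no support for the results. *Plac8* in *Card9-/-5xFAD* against *Card9-/-* was then at -0.18, and *Ly6i* in the averaged effect at -0.28.

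Directions that turned belonged to genes that did not pass. Without the shallow libraries, *Plac8* in *Card9-/-5xFAD* against *Card9-/-* was at -0.19 and *Ly6i* averaged at -0.16, and with at least 10 counts everywhere *Plac8* averaged was at 0.012. With any library left out, the averaged log2 values ran from -0.76 to 0.43 for *Plac8*, from -0.10 to 0.37 for *Ly6i* and from -1.53 to 0.068 for *Fabp4*. In *Card9-/-5xFAD* against *Card9-/-* they ran from -0.77 to 1.07 for *Plac8*, from -0.95 to 0.43 for *Ear2* and from -1.97 to 1.23 for *Fabp4*. In 5xFAD against WT they ran from -1.67 to 0.35 for *Plac8*, from -1.07 to 0.15 for *Chil3* and from -0.72 to 0.021 for *Ly6i*. *Chil3* turned without WT replicate 3, *Plac8* in 5xFAD against WT without WT replicate 1, *Ly6i* in 5xFAD against WT without 5xFAD replicate 4, and *Fabp4* without *Card9-/-* replicate 4. The cause was not tested.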
